A study of Mus musculus with 12 samples.

Results

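The chemotherapy effect pooled over blockade status was measured in bulk RNA sequencing of 12 tumour libraries of the 425-ICC mouse model of intrahepatic cholangiocarcinoma, a malignancy arising from bile ducts within the liver. All tumours were taken after 8 days of treatment, in 4 groups of 3 libraries. GC tumours received chemotherapy alone (the labels give only the letters GC, read here as gemcitabine plus cisplatin), and Control tumours received IgG, an antibody with no checkpoint target. Combination tumours received the same chemotherapy plus 2 checkpoint antibodies (ICB; CTLA-4 and PD1 are the targets in the title of the series), and ICB tumours received these antibodies alone. The pooled difference of a gene was the mean of GC minus Control and Combination minus ICB on log2(FPKM + 1), so that each of the 2 strata, without and with blockade, weighed the same and shared no libraries with the other. FPKM scale the fragments of a gene to its transcript length and to the mapped total of the library. Of 24421 gene symbols, 12765 had a mean of at least 1 FPKM over the 12 libraries and were tested. A gene was counted as separated when it moved the same way in both strata with no overlap of libraries within either stratum, and 854 genes met this rule (6.69%), 560 higher (4.39% of those tested) and 294 lower (2.3%) with chemotherapy. The labels do not tie libraries to animals, so the p-values rest on the spread among libraries, which may be technical, and the sequencing depth is unknown because only FPKM values were used.

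Gemcitabine is a nucleoside analogue that stops DNA chains from growing, and cisplatin is a platinum compound that cross-links DNA. Damaged DNA activates p53, which switches on cell cycle inhibitors and death receptors, and DNA or RNA that reaches the cytosol can be sensed and lead to type I interferon production. Type I interferons act through a receptor shared by alpha and beta interferons and through a factor that holds STAT2 and IRF9, which binds interferon-stimulated response elements in promoters and switches on a large antiviral gene set. The same genes can be switched on in tumour cells, macrophages, fibroblasts and normal liver cells, and bulk RNA does not say in which. In bulk tissue, fewer cells of a type and less RNA per cell cannot be told apart.

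Hepatocyte transcripts were higher on average with chemotherapy in both strata, and small intestinal and skeletal muscle transcripts stood out in a few libraries. They are given first because they touch the results that follow. Whether they reflect dissection of neighbouring tissue or treatment was not tested. The 20 genes of the hepatocyte list (plasma proteins, apolipoproteins and liver enzymes) summed to 0.214% to 1.65% of all FPKM in GC libraries against 0.022% to 0.0395% in Control libraries, and to 0.820% to 21.5% in Combination libraries against 0.150% to 0.592% in ICB libraries. Of the defining markers, Cps1, the first enzyme of the urea cycle, was at 0 in Control replicates 1 and 2 and ICB replicate 1, and the fibrinogen chain Fgb was at 0 in Control replicate 3. The mean log2(FPKM + 1) of that list was 5.96, 4.95 and 7.79 in GC replicates 1, 2 and 3 against 2.23, 2.20 and 0.79 in Control, and 5.24, 11.49 and 10.09 in Combination against 3.61, 5.38 and 5.68 in ICB. Combination replicate 1 lay below ICB replicates 2 and 3 on this mean, although its summed share of 0.820% was above theirs. Apoa1 made up much of that share, at 3721 FPKM against 251 and 365 FPKM in ICB replicates 2 and 3. Alb (217 against 288 and 369 FPKM), Ttr, Fga, Fgb, Serpina1a and Ahsg were lower in Combination replicate 1 than in those ICB libraries, and Cps1 was higher. Combination replicates 2 and 3 lay far above every other library on both measures. Small intestinal transcripts were high in Combination replicate 1 (list mean 6.41, at most 1.61 elsewhere) and skeletal muscle transcripts in GC replicate 2 (6.98) and Control replicate 2 (5.56, at most 0.92 elsewhere). Krt19, a keratin of bile duct cells, was at 0 in Control replicates 2 and 3, and the epithelial adhesion gene Epcam was at 0 in Control replicate 3 and ICB replicate 1, whereas the biliary transcription factor Sox9 ran from 7.56 to 91.9 FPKM over all libraries. Library depth could not be compared, and the part of tissue content in each result below was not tested except where a measurement is given.

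**Figure D1:**
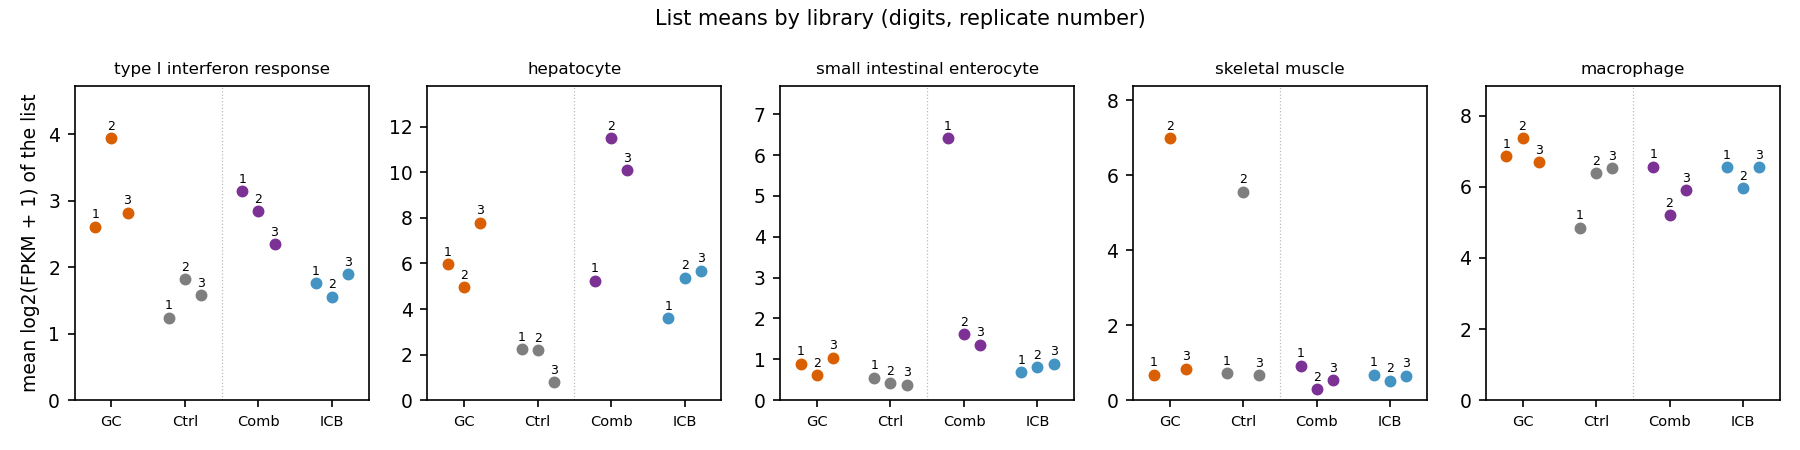
Mean log2(FPKM + 1) of 5 gene lists (y axis) in each library, with GC left of Control (Ctrl) and Combination (Comb) left of ICB and the replicate number beside each point. The interferon list is higher in all 3 GC libraries (2.61 to 3.94) than in all 3 Control libraries (1.24 to 1.82) and in all 3 Combination libraries (2.35 to 3.15) than in all 3 ICB libraries (1.56 to 1.90), while the hepatocyte list overlaps between Combination and ICB and the intestinal and muscle lists stand out in single libraries.

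Pooled over blockade status, 384 genes were higher (3.01% of those tested) and 45 lower (0.353%) with chemotherapy at a Benjamini-Hochberg adjusted p under 0.05 in limma (429 or 3.36% in either direction), and 2846 genes had an unadjusted p under 0.05. Of these calls 89.5% were rises, against 67.7% under TMM scaling and 35.3% under quantile scaling, so the balance of rises and falls changed with the scaling of the libraries. Leaving out 1 library gave between 154 (without GC replicate 3 or ICB replicate 2) and 1337 higher genes (without Combination replicate 1), and between 8 and 400 lower genes, the most again without Combination replicate 1. Without GC replicate 2 and Control replicate 2, the libraries rich in muscle, 108 genes were higher and 5 lower, and the calls of Atf3, Ggnbp1, Fas, Mgmt, Gclm, Bst2, Oas1g and Mylk were among those lost. Leaving out Combination replicates 2 and 3, the libraries richest in hepatocyte transcripts, kept only the intestine-rich Combination replicate 1 in its group. The blockade stratum of that fit therefore rests on 1 Combination library, and its counts are given with the other settings below. With the mean of the hepatocyte list as a covariate 406 were higher and 7 lower, and 63 of the 429 calls were made again. Among the genes described below, that fit lost, among others, the calls of Zbp1, Ifih1, Dhx58, Bst2, Irgm1, Irgm2, H2-K1, Ccl22, Lgals9, Fas, Bik, Ddb2, Mgmt, Gclm, Cbr1, Abcc2, Apoe, Mmp15, Cygb, Kdm3a, Ogn, Atf3, Hspa1a, Rgs1, Coro6, Col4a6, Adamts1, Sertad4 and Arhgef28. Same-numbered libraries deviated together in Combination and ICB (correlations of their deviations from 0.14 to 0.29) but not in every pair of groups. A replicate block over all libraries gave 331 higher and 38 lower genes and ended the calls of Ifih1, Dhx58, Ddb2, Arhgef28 and Alb in limma. A block within the Combination and ICB libraries gave 665 higher and 248 lower. Among the called genes 292 of 384 higher and 37 of 45 lower were also separated in both strata, and 525 separated genes did not pass the test. Taken alone, GC against Control gave 1 called gene (0.00783%) and 1259 at an unadjusted p under 0.05, and Combination against ICB gave 262 higher (2.05%) and 24 lower (0.188%), 2.24% in all, or 489 and 232 with the replicate block within these libraries. Without overlap of libraries, 2377 genes were higher (18.6%) and 1186 lower (9.29%) in GC against Control, and 1209 were higher (9.47%) and 1290 lower (10.1%) in Combination against ICB. Of the genes higher without overlap in GC, 23.6% were also higher without overlap in Combination (beside 9.47% of all genes), and of those higher in Combination 46.3% were also higher in GC (beside 18.6%). For falls the shares were 24.8% (beside 10.1%) and 22.8% (beside 9.29%). A total of 77 genes (0.603%) were separated in opposite directions. Across the 12765 genes, which are not independent, the differences of the 2 strata had a Pearson correlation of 0.51 and a Spearman correlation of 0.42. The Pearson value was 0.20 without Combination replicates 2 and 3. The difference was larger in Combination against ICB for 687 of the 854 separated genes. Just inside the filter of 1 FPKM lay Cebpe (mean 1.01 FPKM) and Herc6 (1.02 FPKM), and just outside it Smim6 (0.989 FPKM) and Arhgap33 (0.98 FPKM).

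**Figure D2:**
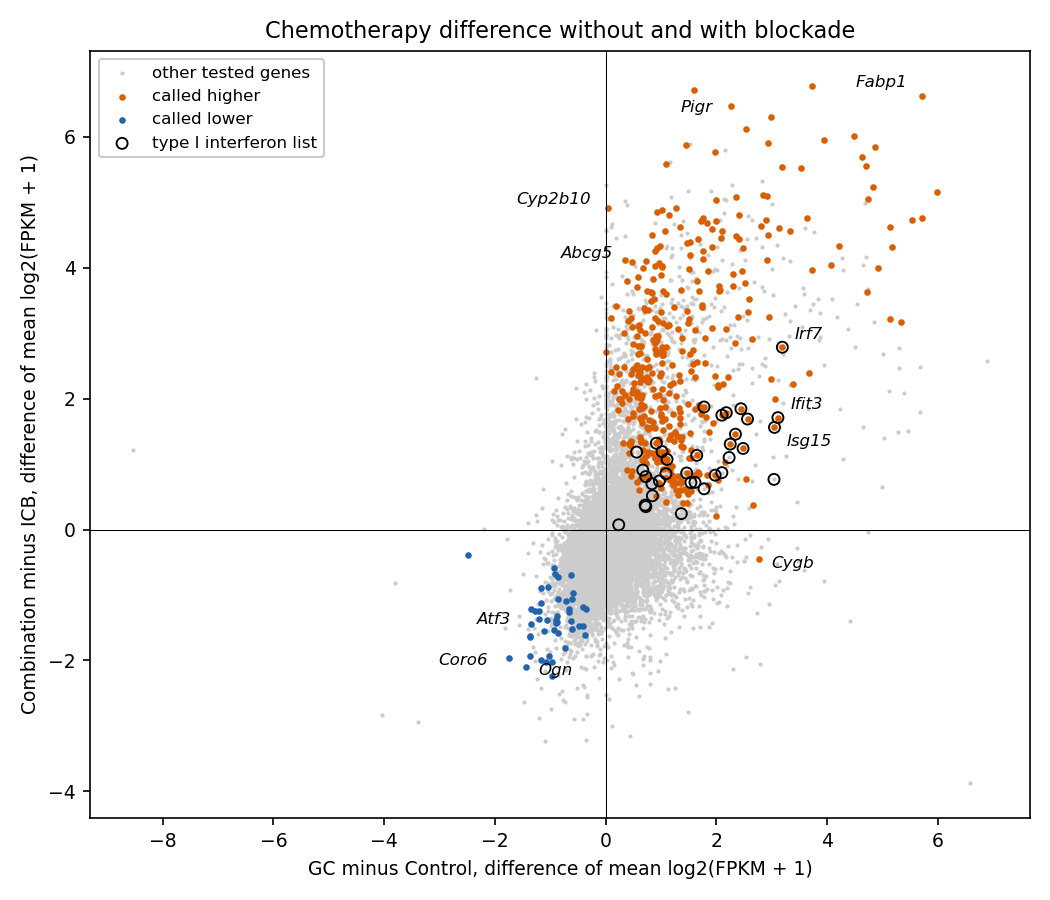
Each point is 1 of 12765 tested genes, with the difference of mean log2(FPKM + 1) without blockade (GC minus Control, x axis) and with blockade (Combination minus ICB, y axis). Genes called in the pooled fit are orange (384 higher) or blue (45 lower), and the 34 tested type I interferon genes, ringed in black, all lie above 0 on both axes.

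Type I interferon response genes were higher with chemotherapy in both strata. Of 34 tested members of the list 17 rose and 0 fell (limma, adjusted p under 0.05 over all 12765 genes, beside 3.01% and 0.353% of all genes), 23 were separated in both strata (beside 4.39%), and all 34 had positive differences in both. Their median pooled difference was 1.18, with 1.63 without blockade and 0.99 with it, against medians of -0.04, 0.09 and -0.21 over all tested genes. The 40 genes listed included Rigi, which was not found under that symbol, and Ifit1bl1, Oas1b, Oas3, Ifi44 and Cmpk2, which were below the filter. All 34 also stayed positive under TMM and quantile scaling. This list was written with earlier results of these data known, which already showed interferon genes higher in GC tumours, so its direction there is no independent support. Leaving out 1 library gave between 10 called members (without ICB replicate 2; 11 without GC replicate 3 or ICB replicate 1) and 24 (without Combination replicate 1), and the replicate block over all libraries gave 12.

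To show what the promoters of these genes share, RefSeq sequences (GRCm38.p6) from 250 bases before to 50 bases after the start were searched on both strands for GAAANNGAAA, a motif of interferon-stimulated response elements that reads TTTCNNTTTC on the opposite strand. A promoter was in the table for 11 of the 17 called genes, and 9 of these held the motif (81.8%), against 3.44% of all 32851 promoters, 3.13% of the 12145 promoters of tested genes, 8.15% of the 356 promoters of genes called higher and 2.38% of the 42 promoters of genes called lower. These are matches of letters and not tested binding sites. The genes were listed because they respond to interferon, so a high share was likely from the start and says nothing about chemotherapy. The promoters of genes called higher include those of these 11 genes. The sequences below are those of 6 genes whose values follow, written 5′ to 3′ on the gene's strand with matches in capitals. Overlapping matches run together, and Irf7 had no match in this window.
Isg15: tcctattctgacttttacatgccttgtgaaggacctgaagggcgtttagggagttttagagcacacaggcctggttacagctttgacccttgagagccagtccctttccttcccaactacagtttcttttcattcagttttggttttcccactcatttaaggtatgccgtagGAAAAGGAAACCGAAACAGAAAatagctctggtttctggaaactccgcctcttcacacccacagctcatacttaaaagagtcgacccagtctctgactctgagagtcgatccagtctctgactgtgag
Ifit3: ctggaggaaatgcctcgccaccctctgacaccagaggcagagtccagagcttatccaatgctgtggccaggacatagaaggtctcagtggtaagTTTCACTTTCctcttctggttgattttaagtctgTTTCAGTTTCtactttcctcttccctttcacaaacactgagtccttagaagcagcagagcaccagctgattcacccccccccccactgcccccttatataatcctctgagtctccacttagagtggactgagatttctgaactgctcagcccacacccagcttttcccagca
Ifit1: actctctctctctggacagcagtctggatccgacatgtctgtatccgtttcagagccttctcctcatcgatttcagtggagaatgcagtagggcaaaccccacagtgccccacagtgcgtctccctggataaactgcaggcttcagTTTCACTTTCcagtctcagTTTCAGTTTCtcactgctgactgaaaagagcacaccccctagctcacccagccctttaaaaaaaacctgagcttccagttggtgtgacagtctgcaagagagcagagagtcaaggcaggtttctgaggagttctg
Oas1g: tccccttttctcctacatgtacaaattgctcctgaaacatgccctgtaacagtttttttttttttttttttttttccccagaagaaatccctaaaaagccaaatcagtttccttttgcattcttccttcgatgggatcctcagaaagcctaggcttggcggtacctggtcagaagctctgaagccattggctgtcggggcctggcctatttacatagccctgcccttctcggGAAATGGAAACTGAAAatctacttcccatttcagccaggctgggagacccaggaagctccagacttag
Rsad2: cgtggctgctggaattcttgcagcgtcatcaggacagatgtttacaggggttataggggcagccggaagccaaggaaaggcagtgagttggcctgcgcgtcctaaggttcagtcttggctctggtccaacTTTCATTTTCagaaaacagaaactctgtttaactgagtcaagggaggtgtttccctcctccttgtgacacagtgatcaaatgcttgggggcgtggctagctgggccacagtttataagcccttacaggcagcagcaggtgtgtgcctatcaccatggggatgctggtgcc
Irf7: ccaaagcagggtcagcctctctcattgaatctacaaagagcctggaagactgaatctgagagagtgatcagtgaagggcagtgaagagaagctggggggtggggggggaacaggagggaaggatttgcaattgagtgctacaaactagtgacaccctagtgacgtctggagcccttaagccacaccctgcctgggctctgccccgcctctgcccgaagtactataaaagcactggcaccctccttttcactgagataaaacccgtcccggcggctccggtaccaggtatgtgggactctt
They lie at chr4:156200769-156201068 (minus strand) for Isg15, chr19:34583279-34583578 (plus) for Ifit3, chr19:34640639-34640938 (plus) for Ifit1, chr5:120887564-120887863 (minus) for Oas1g, chr12:26456403-26456702 (minus) for Rsad2 and chr7:141266375-141266674 (minus) for Irf7. Counted by where they start, Isg15 had 3 matches, Ifit3, Ifit1 and Oas1g had 2 each, and Rsad2 had 1.

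Among the transcription factors of the pathway, Irf7, which amplifies interferon production once a first wave has been made (chromosome 7, 141262706 to 141266481, GRCm38, GENCODE M21), stood at 11.4, 70.6 and 17.2 FPKM in GC replicates 1, 2 and 3 against 1.06, 4.31 and 0.934 FPKM in Control, and at 30.9, 23.8 and 11.3 FPKM in Combination against 1.98, 1.35 and 3.27 FPKM in ICB. GC replicate 2 was the highest library, Control replicate 2 the highest of its group, and neither stratum had an overlap. The pooled difference was 2.99 ± 0.44 (SE) on the log2 scale, 3.19 without blockade and 2.79 with it (limma adjusted p = 0.00492). Stat2, a subunit of the interferon-activated factor, rose by 1.1 ± 0.27 (adjusted p = 0.0476). Irf9, its DNA-binding partner, was separated in both strata at 0.77 ± 0.20 without passing the test (adjusted p = 0.0641).

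Effector genes of the response rose as well. Isg15, a ubiquitin-like protein that is joined to other proteins (chromosome 4, 156199424 to 156200818), was at 26.4, 70.2 and 34.6 FPKM in GC against 4.42, 5.18 and 2.64 FPKM in Control, and at 40.1, 14.5 and 9.79 FPKM in Combination against 3.74, 6.86 and 6.2 FPKM in ICB. Every chemotherapy library exceeded every library of its paired group, and Combination replicate 1 was the highest of the Combination tumours. It rose by 2.31 ± 0.35, 3.05 without blockade and 1.56 with it (adjusted p = 0.00522). Ifit3, a member of the family that binds foreign RNA, was at 6.31, 25.5 and 9.19 FPKM in GC against 0, 1.43 and 0.259 FPKM in Control and at 10.7, 6.75 and 2.85 FPKM in Combination against 0.987, 1.24 and 1.23 FPKM in ICB. Its lowest chemotherapy library was Combination replicate 3, still above each ICB library. Ifit3 rose by 2.41 ± 0.37 (adjusted p = 0.00602), its neighbour Ifit1 by 1.86 ± 0.29 (adjusted p = 0.00661) and the near-identical copy Ifit3b by 1.78 ± 0.32 (adjusted p = 0.0137). Reads of Ifit3 and Ifit3b can be split between the copies in ways the files do not show, so each value alone is uncertain.

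Rtp4, an interferon-induced inhibitor of virus replication, was at 4.37, 14.98 and 3.38 FPKM in GC against 0.464, 0.763 and 0.564 FPKM in Control and at 8.09, 6.52 and 4.33 FPKM in Combination against 1.15, 0.676 and 1.46 FPKM in ICB. The 6 chemotherapy libraries all lay above the other 6. Rtp4 rose by 1.98 ± 0.31 (limma adjusted p = 0.00602), and its strata lay close together, at 2.18 without blockade and 1.79 with it. Oas1g, an oligoadenylate synthetase that starts the decay of RNA by RNase L and has close copies that may share its reads, was at 3.75, 10.4 and 6.02 FPKM in GC against 0, 0.688 and 0.393 FPKM in Control and at 10.96, 2.18 and 1.74 FPKM in Combination against 0.323, 0.147 and 0.476 FPKM in ICB. It was listed at 0 in Control replicate 1 and highest in Combination replicate 1, and it rose by 2.15 ± 0.37 (adjusted p = 0.0115). Bst2, the tetherin that holds budding virus at the cell surface, was already expressed in all tumours, at 57.7, 187 and 114 FPKM in GC against 20, 27.2 and 26.2 FPKM in Control and at 67.1, 201 and 93.4 FPKM in Combination against 24.3, 25.97 and 49.3 FPKM in ICB. Its groups did not overlap, and it rose by 1.92 ± 0.34 (adjusted p = 0.0134). Usp18, which removes Isg15 from proteins and damps receptor signalling, rose by 1.9 ± 0.34 (adjusted p = 0.0142). Further rises were seen in Oasl1 (1.82 ± 0.34), the GTPase gene Mx2 (1.39 ± 0.26), Rsad2, which encodes viperin (1.4 ± 0.34), and Parp14, an ADP-ribosyltransferase (1.09 ± 0.26), with limma adjusted p from 0.0174 to 0.0476. The calls of Irf7, Isg15, Ifit3, Rtp4, Oas1g and Bst2 held when any single library was left out, and that of Oasl1 was lost without ICB replicate 1 or ICB replicate 2 (adjusted p up to 0.0609).

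**Figure D3:**
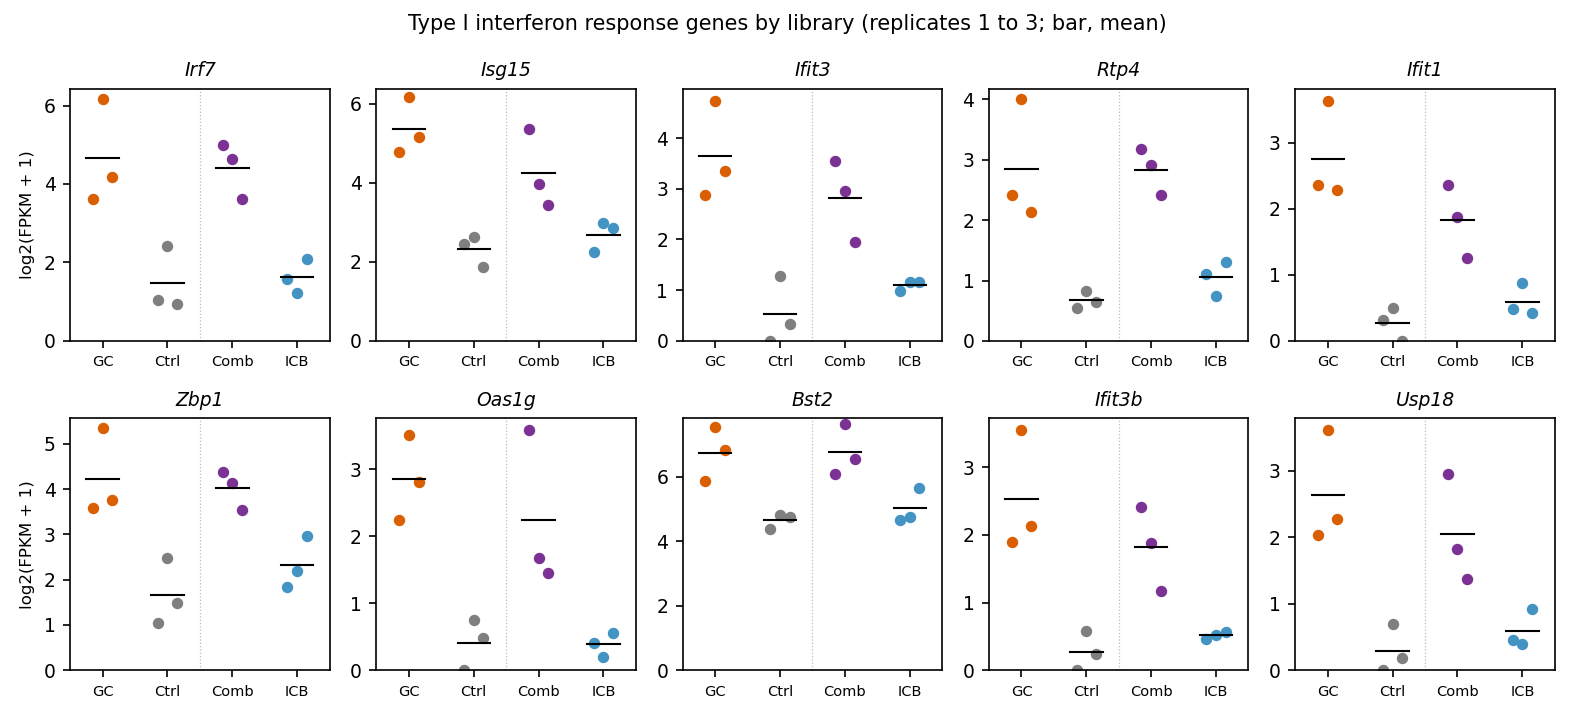
Level on log2(FPKM + 1) (y axis) of 10 called type I interferon genes in each of 3 libraries per group, with GC left of Control (Ctrl) and Combination (Comb) left of ICB and the bar at the group mean. In each panel the chemotherapy points lie above all points of the paired group, as for Irf7 (at least 11.4 FPKM in GC against at most 4.31 FPKM in Control).

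Sensors of foreign nucleic acid were part of the rise. Zbp1, which recognises left-handed nucleic acid and can start necroptosis, was at 10.9, 39.9 and 12.7 FPKM in GC against 1.07, 4.56 and 1.8 FPKM in Control and at 19.9, 16.7 and 10.6 FPKM in Combination against 2.57, 3.59 and 6.83 FPKM in ICB. No chemotherapy library lay within its paired group, and Zbp1 rose by 2.13 ± 0.36 (limma adjusted p = 0.011). The RNA helicases Ifih1, a sensor of long double-stranded RNA, and Dhx58, a regulator of it, rose by 1.12 ± 0.26 (adjusted p = 0.0393) and 1.16 ± 0.25 (adjusted p = 0.0308). These were the 3 of 16 tested sensing genes that passed (beside 3.01% of all genes called higher), all 3 being members of the interferon list too. Mavs, the adaptor of Ifih1, was separated in both strata with 0.68 ± 0.22 (limma adjusted p = 0.112), and the median over the 16 sensing genes was 0.51. The Zbp1 call held without any single library and was lost with the hepatocyte covariate (2.45, adjusted p = 0.052), as were those of Ifih1 (0.83, adjusted p = 0.264) and Dhx58 (1.55, adjusted p = 0.0586). The call of Ifih1 was lost in 11 and that of Dhx58 in 8 of the 12 fits that each left out 1 library (adjusted p up to 0.0973 and 0.0892, both without ICB replicate 2).

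In the interferon list, 28 of the 34 members had a larger difference in GC against Control than in Combination against ICB, although none passed the test of the difference between strata (limma interaction, 1 at an unadjusted p under 0.05, beside 2 genes or 0.0157% of all genes). Counted with their signs, other lists showed the same, with 28 of 28 mitosis and 32 of 32 ribosomal protein genes, against 0 of 18 enterocyte genes. The ribosomal protein genes had negative medians in both strata, so by size their fall was smaller without blockade (-0.52) than with it (-1.34). Medians over all genes were 0.09 without and -0.21 with blockade. The means of the muscle list and the interferon list were both highest in GC replicate 2 (6.98 and 3.94), although some interferon genes, such as Oas1g and Bst2, peaked in a Combination library. Without GC replicate 2 and Control replicate 2, 8 members stayed called and all 34 remained positive, with a median of 1.03. Hepatocyte transcripts were also higher in both chemotherapy groups, as given above, and their part in the interferon difference was not tested. Without Combination replicates 2 and 3 the list had a median of 1.41, with Combination replicate 1 alone left in its group. That library had the highest interferon list mean of the Combination libraries (3.15, against 2.84 and 2.35). When the mean of the hepatocyte list entered the fit as a covariate, 14 members were called (beside 3.18% of all genes called higher in that fit), among them Oas1g (3.32, adjusted p = 0.0149) and Irf7 (3.56, adjusted p = 0.0313). The median over all genes was 0.31 in that fit, against -0.04 without the covariate. With hepatocyte, intestinal and muscle list means together no gene of the 12765 was called (limma, 337 at an unadjusted p under 0.05), and all 34 members still had positive differences. Macrophage transcripts did not overlap without blockade (list means 6.70 to 7.36 in GC against 4.85 to 6.52 in Control). With blockade they were 5.21 to 6.56 in Combination against 5.96 to 6.55 in ICB, where the interferon list was higher in Combination. Whether macrophages, tumour cells or other cells made these transcripts was not tested.

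The interferon gamma response, which shares factors with type I signalling, and MHC class I presentation gave fewer calls. Of 21 tested interferon gamma genes 4 rose (beside 3.01% of all genes), 0 fell and 7 were separated (beside 4.39%), with a median of 0.98. TMM scaling gave 2 called members, the fit without GC replicate 2 and Control replicate 2 gave 1, and the hepatocyte covariate 0 (limma). The risers were the immunity-related GTPases Irgm2 and Irgm1, the guanylate-binding protein Gbp3 and the chemokine Cxcl10. Irgm1 was at 8.66, 24.6 and 8.96 FPKM in GC against 2.49, 7.12 and 5.46 FPKM in Control and at 10.8, 29.04 and 15.6 FPKM in Combination against 5.94, 4.36 and 6.21 FPKM in ICB. Its groups did not overlap and it rose by 1.37 ± 0.32 (limma adjusted p = 0.0452). Cxcl10, which attracts activated T cells, rose by 1.74 ± 0.42 (adjusted p = 0.0464), with an overlap between GC (2.94, 16.9 and 5.34 FPKM) and Control (0.72, 4.42 and 0.351 FPKM). The GTPase Tgtp2 and the guanylate-binding protein Gbp6 were separated at 1.29 ± 0.37 and 1.16 ± 0.34 and did not pass (adjusted p = 0.08 and 0.0891). Calls of both Irgm genes were lost when any 1 of 11 libraries was left out, all but Combination replicate 1 (limma adjusted p up to 0.122 for Irgm1 and 0.127 for Irgm2, without ICB replicate 2).

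Among 23 tested MHC class I genes 2 rose (beside 3.01% of all genes), 5 were separated (beside 4.39%) and 22 were positive, with a median of 0.63. TMM scaling gave 1 called member, and the hepatocyte covariate and the fit without GC replicate 2 and Control replicate 2 gave 0 (limma). H2-K1, a classical class I heavy chain, was at 169.7, 539.9 and 309.8 FPKM in GC against 107, 103 and 107 FPKM in Control and at 350.3, 748 and 378 FPKM in Combination against 139, 129 and 254 FPKM in ICB. All GC libraries lay above the tight Control group, and Combination replicate 2 was the highest. It rose by 1.5 ± 0.31 (limma adjusted p = 0.0279), a call lost when any 1 of 7 libraries was left out (ICB replicate 2 gave the highest adjusted p, 0.0877), and not passed under TMM scaling. Tap2, a subunit of the peptide transporter, rose by 0.97 ± 0.19 (adjusted p = 0.0192). H2-D1, the light chain gene B2m and the immunoproteasome subunit Psmb9 were separated in both strata with 1.03 ± 0.26, 0.88 ± 0.23 and 1.23 ± 0.31 and did not pass (adjusted p = 0.0555, 0.062 and 0.0527). H2-K1 and H2-D1 are close relatives, so their reads may be shared. None of 9 MHC class II genes passed (limma, 2 at an unadjusted p under 0.05), with medians of 1.49 without and 0.07 with blockade.

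Among chemokines and checkpoint ligands, Ccl22, which attracts regulatory T cells and is made by mature dendritic cells, was at 2.3, 5.48 and 6.09 FPKM in GC against 0.492, 0.722 and 0.265 FPKM in Control and at 2.09, 3.32 and 3.03 FPKM in Combination against 1.91, 0.675 and 1.71 FPKM in ICB. The groups did not overlap, with a narrow gap between Combination and ICB, and it rose by 1.26 ± 0.25 (limma adjusted p = 0.0214), a call lost when any 1 of 4 libraries was left out (GC replicate 3 gave the highest adjusted p, 0.0773). Ccl5 rose by 1.66 ± 0.40 (limma adjusted p = 0.0476) with overlap in 1 stratum. In all, 3 of 22 chemokine genes rose and 0 fell (beside 3.01% and 0.353% of all genes). Lgals9, the galectin ligand of TIM-3, was at 45.4, 63.6 and 64.2 FPKM in GC against 15.5, 26.4 and 26.1 FPKM in Control and at 66.6, 306 and 111 FPKM in Combination against 29.9, 18.7 and 26.9 FPKM in ICB. It did not overlap in either stratum, peaked in the hepatocyte-rich Combination replicate 2, and rose by 1.85 ± 0.33 (adjusted p = 0.014), with an adjusted p of 0.0504 without ICB replicate 2. Cd274, which encodes PD-L1, had opposite signs in the strata, at 10.3, 13.02 and 12.2 FPKM in GC against 7.28, 5.98 and 7.55 FPKM in Control and 5.55, 1.72 and 6.23 FPKM in Combination against 8.85, 10.9 and 12.7 FPKM in ICB. Neither stratum overlapped, the pooled difference was -0.26 ± 0.24 (adjusted p = 0.544), and the difference between strata was -1.91 ± 0.47 (interaction, adjusted p = 0.325).

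Genes of cell death and of the damage response gave single calls. Fas, the death receptor and a p53 target, was at 3.79, 5.9 and 5.43 FPKM in GC against 0.866, 1.45 and 1.84 FPKM in Control and at 5.85, 19.4 and 7.17 FPKM in Combination against 2.18, 2.58 and 2.55 FPKM in ICB. No libraries overlapped, and it rose by 1.48 ± 0.26 (limma adjusted p = 0.0134), holding without any single library but not with the hepatocyte covariate (0.88, adjusted p = 0.22). The pro-apoptotic BH3-only gene Bik rose by 1.08 ± 0.23 (adjusted p = 0.0299). Its libraries did not overlap in either stratum, and its call was lost in 9 of the 12 fits that left out 1 library (adjusted p up to 0.0856, without ICB replicate 2). Fas and Bik were among the 3 called of 29 tested apoptosis genes (beside 3.01% of all genes called higher). Bcl2l11, which encodes the death activator BIM, was separated downward at -1.08 ± 0.35 and did not pass (adjusted p = 0.114).

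Of 34 tested p53 targets 2 rose (Fas and Perp, an adhesion and death gene, 1.63 ± 0.28, overlapping between GC and Control) and 1 fell, beside 3.01% and 0.353% of all genes, with a median of 0.14. Ddb2, the damage recognition factor of nucleotide excision repair, fell by 0.96 ± 0.22 (adjusted p = 0.0408), with 2.85, 1.32 and 1.18 FPKM in GC against 3.41, 2.94 and 3.44 FPKM in Control and 0.648, 0.678 and 1.95 FPKM in Combination against 4.29, 3.05 and 4.18 FPKM in ICB. Its call was lost when any 1 of 9 libraries was left out (GC replicate 3 gave the highest adjusted p, 0.122), and its gap in GC against Control was small. The usual readouts of p53 activity did not pass: Cdkn1a, the cell cycle inhibitor p21, was at 71.8, 100 and 83.5 FPKM in GC against 110, 37.9 and 34.7 FPKM in Control and 59.03, 39.6 and 50.2 FPKM in Combination against 60.2, 58.2 and 76.9 FPKM in ICB, with a pooled difference of 0.14 ± 0.28 (adjusted p = 0.802). Mdm2, the p53 inhibitor that p53 induces, differed by 0.03 ± 0.20 (adjusted p = 0.937). In Control the highest Cdkn1a library was replicate 1, above every GC library. Aen and Ei24, other p53 targets, were separated in both strata at 0.66 ± 0.20 and 0.95 ± 0.25 and did not pass.

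Mgmt, which removes alkyl groups from guanine, was the 1 called gene of 37 in damage signalling and repair (beside 3.01% of all genes). It was at 6.88, 10.8 and 8.08 FPKM in GC against 2.47, 1.69 and 3.0 FPKM in Control and at 7.75, 15.03 and 11.3 FPKM in Combination against 4.18, 3.65 and 6.43 FPKM in ICB. Every chemotherapy library was above its paired group, and Mgmt rose by 1.3 ± 0.21 (limma adjusted p = 0.00736), a call that held without any single library and was lost with the hepatocyte covariate (0.96, adjusted p = 0.135). The list had a median of -0.26 and 5 of 37 positive genes, against a median of 0.02 and 19 positive without Combination replicates 2 and 3. That fit kept Combination replicate 1 alone in its group. Atr, the kinase that answers stalled replication, was separated downward at -0.46 ± 0.18 without passing (adjusted p = 0.166).

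Genes that handle the drugs or answer oxidants gave a few calls. Gclm, the modifier subunit of glutathione synthesis and an NRF2 target, was at 11.8, 13.8 and 14.9 FPKM in GC against 9.65, 8.82 and 9.84 FPKM in Control and at 24.5, 56.8 and 36.8 FPKM in Combination against 9.27, 6.35 and 8.6 FPKM in ICB. It was separated in both strata, was largest in Combination replicate 2 and rose by 1.28 ± 0.20, 0.47 without blockade and 2.09 with it (limma adjusted p = 0.00666). Cbr1, a carbonyl reductase in the NRF2 list, rose by 1.5 ± 0.20, 0.86 without blockade and 2.14 with it (adjusted p = 0.00384). These were the 2 called of 23 NRF2 targets (beside 3.01% of all genes called higher), whose median was 0.26. The sulfiredoxin gene Srxn1 was separated at 0.61 ± 0.16 without passing. In the platinum list, 3 of 18 rose (beside 3.01% of all genes), among them Gclm and the export pump Abcc2 (2.23 ± 0.44). Abcc2 was listed at 0 in every Control library and was highest in Combination replicates 2 and 3, the libraries richest in hepatocyte transcripts. Normal hepatocytes express it, and its call was lost with the hepatocyte covariate, which itself differed between the groups. The part of hepatocyte transcripts in its rise was not tested. Its call was also lost in 6 of the 12 fits that left out 1 library (limma adjusted p up to 0.0692, without GC replicate 3). The Gclm and Cbr1 calls were lost with the hepatocyte covariate too (0.78, adjusted p = 0.153 for Gclm and 1.18, adjusted p = 0.0735 for Cbr1), and Cbr1 was highest in Combination replicate 2. Of 23 genes for gemcitabine uptake, activation and targets none passed (limma, none at an unadjusted p under 0.05) and the median was 0.00 with 12 positive. The hepatocyte covariate gave 23 positive genes, a median of 0.74 and 2 called. Without Combination replicates 2 and 3, with Combination replicate 1 alone left in its group, there were 17 positive and a median of 0.30. Rrm2, the ribonucleotide reductase subunit that gemcitabine inhibits, was at 24.9, 54.4 and 37.8 FPKM in GC against 10.1, 24.8 and 37.3 FPKM in Control and 55.3, 9.18 and 12.8 FPKM in Combination against 27.98, 13.7 and 15.2 FPKM in ICB, overlapping in both strata (0.43 ± 0.45, adjusted p = 0.603).

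Proliferation genes were not called in either direction. Of 29 genes of S phase and 28 of mitosis, 0 were called (limma, 2 and 0 at an unadjusted p under 0.05), with medians of -0.05 and -0.02. With the hepatocyte covariate they were 1.11 (29 of 29 positive, 1 called) and 1.49 (28 of 28 positive, 0 called). Without Combination replicates 2 and 3 they were 0.44 (25 positive) and 0.60 (27 positive). That fit kept Combination replicate 1 alone in its group, whose S phase and mitosis list means of 4.34 and 4.59 were the highest of the Combination libraries. Mki67, the proliferation antigen, was at 9.11, 15.8 and 10.2 FPKM in GC against 1.84, 16.5 and 20.6 FPKM in Control and at 15.6, 2.65 and 6.49 FPKM in Combination against 13.1, 5.14 and 6.64 FPKM in ICB. Libraries of both strata overlapped, the difference was 0.05 ± 0.52 (adjusted p = 0.966), and its sign changed under 6 of the other settings.

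The largest rises among the named genes were in genes of hepatocytes, some of them shared with intestine. Fabp1, the fatty acid carrier of liver and intestine, was at 76.5, 106 and 414 FPKM in GC against 1.38, 5.68 and 0.486 FPKM in Control and at 2188, 6421 and 3752 FPKM in Combination against 14.04, 55.5 and 62.6 FPKM in ICB. No library overlapped in either stratum, and Fabp1 rose by 6.17 ± 0.55 (limma adjusted p = 0.00109). Adh1, an alcohol dehydrogenase, rose by 5.36 ± 0.66, Pck1, the first step of gluconeogenesis, by 4.52 ± 0.59, and Apoa1, the main protein of high-density lipoprotein, by 5.57 ± 0.75 (adjusted p from 0.00308 to 0.00365). The secreted and metabolic liver genes Apoc3 (4.88 ± 0.74), Cyp3a11 (5.25 ± 0.74), Cyp2e1 (5.12 ± 1.07), Cyp2d26 (4.0 ± 0.56), Akr1c6 (5.17 ± 1.00), Ces1c (4.95 ± 1.09), Rdh7 (4.21 ± 0.77) and Alb, albumin (4.9 ± 1.19), rose as well (limma adjusted p from 0.00391 to 0.0492). Leaving out 1 library in turn lost the calls of Cyp2e1 in 8, Ces1c in 11, Alb in 11, Akr1c6 in 4 and Rdh7 in 1 of the 12 fits, with adjusted p up to 0.134, for Alb without ICB replicate 1. Fabp1 (4.45, adjusted p = 0.0246), Adh1 (2.53, adjusted p = 0.0246) and Pck1 (2.03, adjusted p = 0.0308) kept their limma calls with the hepatocyte covariate, and Apoa1 did not (3.27, adjusted p = 0.084). That covariate does not measure intestinal transcripts, and 16 of 18 enterocyte genes were called in the same fit. With hepatocyte, intestinal and muscle list means together the calls of Fabp1, Adh1 and Pck1 were lost, as were all others. Of the 20 hepatocyte genes of the list, 9 rose (beside 3.01% of all genes), 0 fell and 6 were separated (beside 4.39%), with a median of 4.24. This list is the measure of liver content given above, so its rise is a description of that content. With its mean as a covariate no member was called (limma) and the median was -0.44. Without Combination replicates 2 and 3, which left Combination replicate 1 alone in its group, the median was 2.16.

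Pigr, the receptor that carries IgA across epithelia, was at 3.79, 2.23 and 9.01 FPKM in GC against 0.18, 0.197 and 0 FPKM in Control and at 86.3, 442 and 226 FPKM in Combination against 0.0858, 1.94 and 2.86 FPKM in ICB. It was separated in both strata and rose by 4.37 ± 0.44 (limma adjusted p = 0.00139), also in the covariate fit (2.58, adjusted p = 0.0149). Creb3l3, a liver and gut transcription factor, rose by 2.82 ± 0.29 (adjusted p = 0.00139). In the complement list 2 of 20 rose (beside 3.01% of all genes), with a median of 1.56. They were Cfb, the factor B of the alternative pathway (3.04 ± 0.68, overlapping between Combination and ICB), and Cd59a, the inhibitor of the membrane attack complex. Cd59a was at 7.88, 23.2 and 13.7 FPKM in GC against 3.95, 1.54 and 2.77 FPKM in Control and at 23.6, 35.1 and 18.5 FPKM in Combination against 3.72, 3.96 and 7.05 FPKM in ICB. Its groups did not overlap. It rose by 2.1 ± 0.28 (adjusted p = 0.00384). The median of the complement list was -0.36 with the hepatocyte covariate.

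Enpp3, Anpep, Fabp2, Cdhr5 and Mylk also stayed called with that covariate. In that fit 16 of 18 enterocyte genes were called (beside 3.18% of all genes called higher), against 3 of 18 without it (beside 3.01%). Anpep, the aminopeptidase N of myeloid cells and brush borders, was at 20.1, 30.2 and 22.4 FPKM in GC against 3.4, 8.43 and 5.01 FPKM in Control and at 208, 47.8 and 34.8 FPKM in Combination against 9.09, 10.9 and 22.3 FPKM in ICB. Its libraries did not overlap, Combination replicate 1 with its intestinal transcripts was the highest, and it rose by 2.16 ± 0.41 (limma adjusted p = 0.0184). Enpp3, an ectonucleotidase of basophils and epithelia, rose by 2.17 ± 0.44, and was also highest in that library. Fabp2 and Cdhr5, which mark enterocytes, rose by 4.16 ± 0.81 and 2.98 ± 0.40, and both were also highest in Combination replicate 1. Their differences were 1.60 and 1.14 without blockade and 6.71 and 4.81 with it. The enterocyte list had medians of 0.01 without blockade and 1.98 with it. The calls of Anpep, Enpp3 and Fabp2 were lost in 5, 7 and 6 of the 12 fits that left out 1 library, with adjusted p up to 0.0749 for Enpp3 without ICB replicate 2. Mylk, the myosin light chain kinase, was at 9.22, 14.97 and 11.2 FPKM in GC against 5.11, 1.36 and 1.47 FPKM in Control and at 25.1, 11.9 and 9.35 FPKM in Combination against 3.28, 2.67 and 6.56 FPKM in ICB. Combination replicate 1 was again highest, no groups overlapped, and Mylk rose by 1.78 ± 0.32 (adjusted p = 0.0138). Mmp15, a membrane-bound metalloproteinase, rose by 1.54 ± 0.24, 0.57 without blockade and 2.52 with it (adjusted p = 0.00666), and its call was lost with the covariate (1.4, adjusted p = 0.087) and in the additive model. Apoe, the apolipoprotein of macrophages and hepatocytes, rose by 2.27 ± 0.44 (adjusted p = 0.0203), the 1 called of 18 macrophage genes, and its call was lost with the covariate (0.73, adjusted p = 0.408) and lost when any 1 of 7 libraries was left out (ICB replicate 2 gave the highest adjusted p, 0.0699).

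Fewer genes fell. Ogn, osteoglycin, a small leucine-rich proteoglycan of connective tissue (chromosome 13, 49608046 to 49624501), was at 3.67, 4.04 and 2.87 FPKM in GC against 8.21, 9.45 and 14.97 FPKM in Control and at 1.81, 0.464 and 1.31 FPKM in Combination against 9.13, 5.47 and 7.12 FPKM in ICB. Every chemotherapy library lay below all libraries of the paired group. Its pooled difference was -1.65 ± 0.22 (limma adjusted p = 0.00361), and it was the 1 called of 9 genes in its family, whose median was 0.37. Atf3, a stress-induced transcription factor (chromosome 1, 191170296 to 191218039), was at 7.45, 7.18 and 8.74 FPKM in GC against 30.6, 15.8 and 19.6 FPKM in Control and at 9.13, 4.05 and 5.65 FPKM in Combination against 12.3, 25.2 and 18.9 FPKM in ICB. GC libraries lay close together, and neither stratum overlapped. The pooled difference was -1.4 ± 0.24 (adjusted p = 0.0111), the 1 call among 24 genes of the unfolded protein and integrated stress response. Ggnbp1, a gene known from germ cells, differed by -1.22 ± 0.21 (adjusted p = 0.0119). Of the lower genes named by rule, Ogn, Atf3 and Ggnbp1 kept their calls without any single library, and only Ggnbp1 kept it with the hepatocyte covariate (-1.48, adjusted p = 0.0439).

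Hspa1a, an inducible heat shock protein, was at 5.68, 5.58 and 6.25 FPKM in GC against 7.59, 18.98 and 35.6 FPKM in Control and at 2.11, 2.27 and 7.47 FPKM in Combination against 9.06, 26.4 and 23.6 FPKM in ICB. The groups did not overlap, although Control replicate 1 and Combination replicate 3 lay near the gap. It fell by 1.77 ± 0.39 (limma adjusted p = 0.0355), and its near-identical copy Hspa1b differed by -1.58 ± 0.40 without passing (adjusted p = 0.0557), so the split of reads between them is uncertain. Rgs1, a regulator of G protein signalling in leukocytes, was at 11.3, 8.29 and 12.99 FPKM in GC against 58.6, 24.2 and 17.1 FPKM in Control and at 7.87, 6.22 and 8.7 FPKM in Combination against 16.9, 40.9 and 23.2 FPKM in ICB. All chemotherapy libraries lay below all others, and Rgs1 fell by 1.5 ± 0.30 (adjusted p = 0.0242). Coro6, an actin-binding coronin, fell by 1.86 ± 0.35 (adjusted p = 0.0182), and Col4a6, a basement membrane collagen chain, by 1.51 ± 0.35 (adjusted p = 0.0407). Adamts1, a matrix protease, differed by -1.22 ± 0.27, Sertad4 by -1.59 ± 0.38 and Arhgef28, a guanine nucleotide exchange factor, by -1.15 ± 0.27 (adjusted p = 0.0373, 0.0452 and 0.0442). The call of Coro6 was lost without GC replicate 3 or ICB replicate 1 (GC replicate 3 gave the highest adjusted p, 0.0578), and that of Rgs1 was lost when any 1 of 5 libraries was left out (ICB replicate 2 gave the highest adjusted p, 0.0699). Those of Hspa1a, Col4a6, Adamts1, Sertad4 and Arhgef28 were lost when any 1 of 8 to 10 libraries was left out (adjusted p up to 0.123, for Sertad4 without ICB replicate 1). Hepatocyte transcripts were higher on average in the groups in which these genes were low, but not in each library. Combination replicate 1 had a hepatocyte list mean of 5.24, below ICB replicates 2 and 3 (5.38 and 5.68). The part of hepatocyte transcripts was not tested beyond the covariate fit, in which 7 genes were lower (0.0548%).

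**Figure D4:**
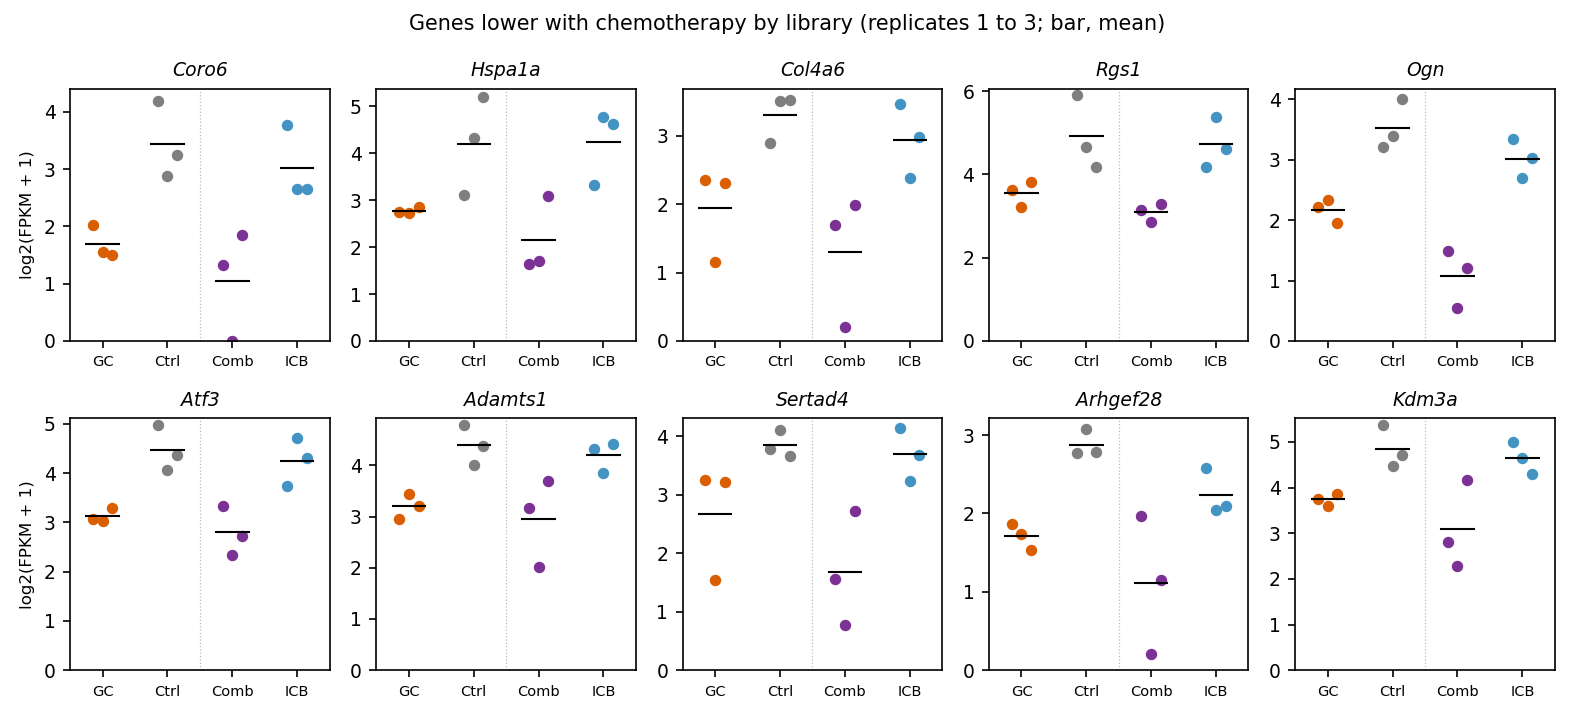
Level on log2(FPKM + 1) (y axis) of the 10 lower genes of the largest smaller-stratum difference, in each of 3 libraries per group, with GC left of Control (Ctrl) and Combination (Comb) left of ICB and the bar at the group mean. All GC points lie below those of Control and all Combination points below those of ICB, as for Ogn (at most 4.04 FPKM in GC against at least 8.21 FPKM in Control).

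Hypoxia, glycolysis and ribosomal protein lists had negative medians with 1 call among them (beside 0.353% of all genes called lower). Kdm3a, a histone demethylase induced by low oxygen, was at 12.5, 11.2 and 13.5 FPKM in GC against 40.2, 21.2 and 25.2 FPKM in Control and at 5.99, 3.9 and 17.1 FPKM in Combination against 30.8, 24.03 and 18.8 FPKM in ICB. It did not overlap in either stratum and fell by 1.33 ± 0.30 (limma adjusted p = 0.0374), the 1 call of 18 hypoxia genes, whose median was -0.96 and of which 16 were negative. The Kdm3a call was lost when any 1 of 9 libraries was left out (ICB replicate 1 gave the highest adjusted p, 0.106). All 16 glycolysis genes were negative with a median of -0.81, and 0 passed (limma, 10 at an unadjusted p under 0.05, beside 2846 of all 12765 genes). Downward separation was seen in 5 (beside 2.3% of all genes), among them the hexokinases Hk1 (-0.91 ± 0.36) and Hk2 (-1.08 ± 0.41) and the pyruvate kinase Pkm (-0.97 ± 0.48). Eno1, enolase, was at 368, 268 and 384 FPKM in GC against 624, 435 and 426 FPKM in Control and at 356, 134 and 278 FPKM in Combination against 429, 366 and 405 FPKM in ICB, lower in each chemotherapy library, at -0.64 ± 0.25 (adjusted p = 0.166). All 32 ribosomal protein genes were negative as well, with a median of -0.94 and 0 called (limma, 30 at an unadjusted p under 0.05). Downward separation held for 6 (beside 2.3% of all genes), among them Rps4x (-1.0 ± 0.26, limma adjusted p = 0.0592) and Rpl3 (-1.03 ± 0.30, adjusted p = 0.0843). Quantile scaling gave 6 called glycolysis genes and TMM scaling 2 called ribosomal protein genes, all lower, and the number of negative genes in each of these 3 lists was the same under both. With the hepatocyte covariate the medians were -0.93 for hypoxia, -0.20 for glycolysis and -0.15 for ribosomal proteins. In oxidative phosphorylation 26 of 27 genes were positive with a median of 0.26 and 0 called (limma, 9 at an unadjusted p under 0.05), against 20 positive under quantile scaling.

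**Figure D5:**
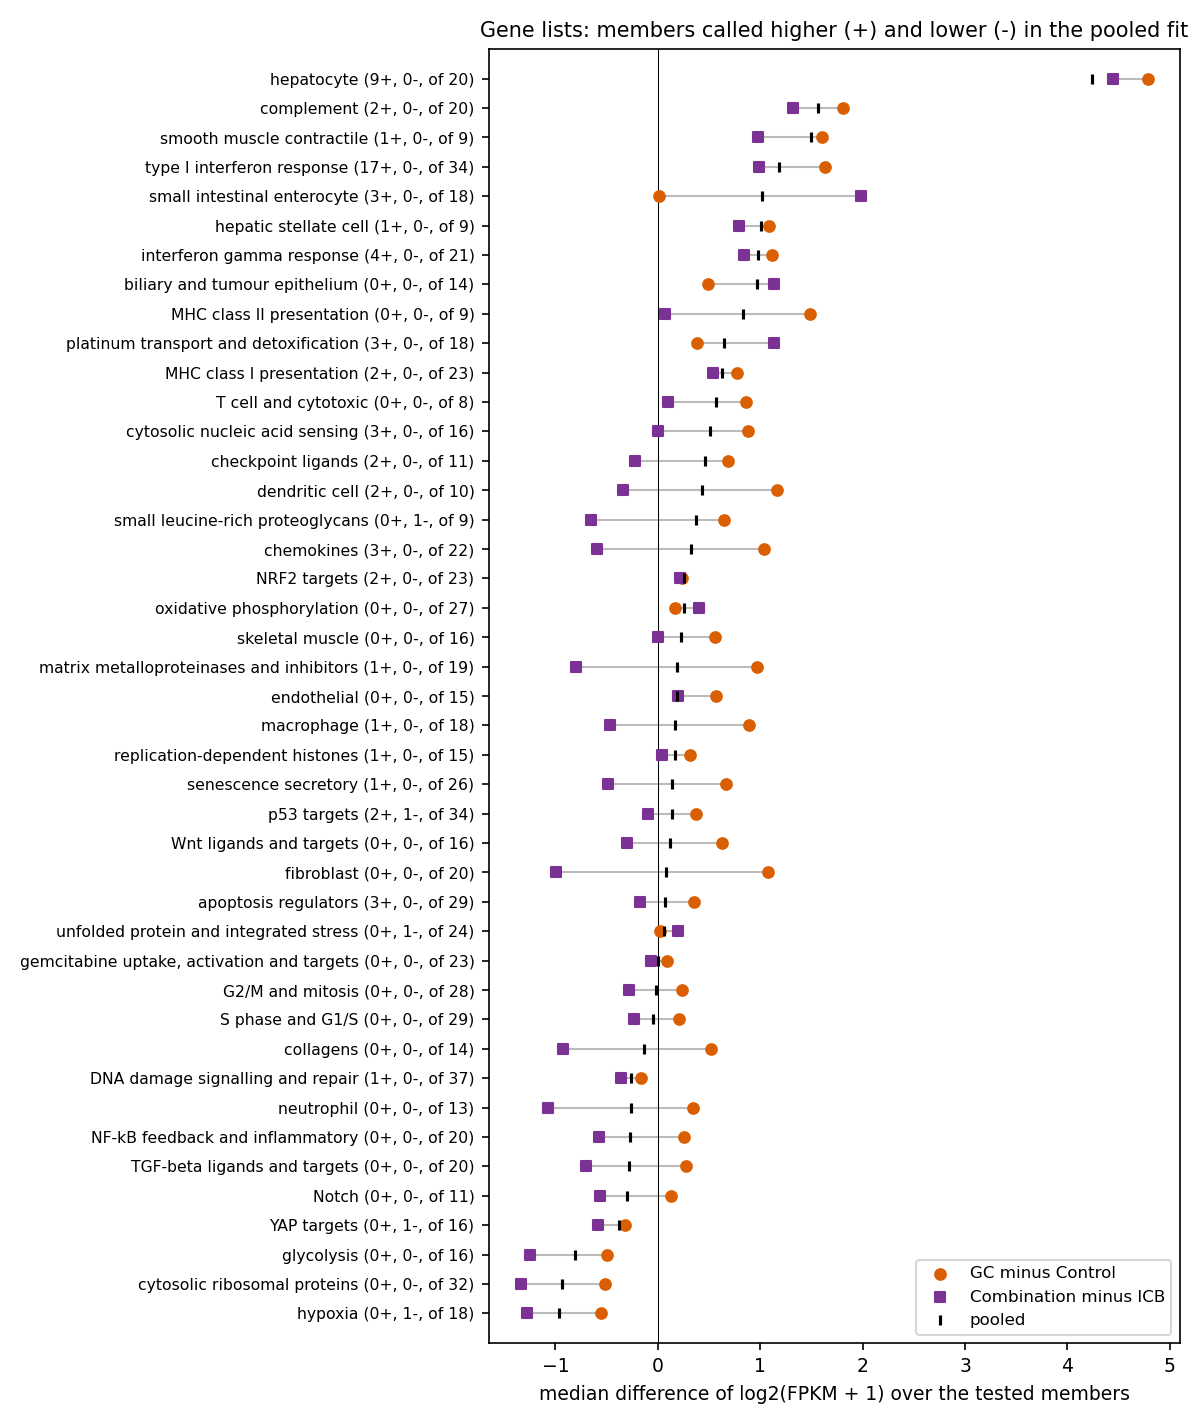
Median difference of log2(FPKM + 1) over the tested members of each list with at least 5 tested members (x axis), without blockade (orange circles, GC minus Control) and with it (purple squares, Combination minus ICB), with the pooled median as a black tick. Beside each name stand the members called higher and lower and the number tested, as 17 and 0 of 34 for type I interferon, and the fibroblast list has medians of opposite sign in the strata (1.08 and -0.99).

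Some lists had medians of opposite sign in the strata. Fibroblast genes had medians of 1.08 without and -0.99 with blockade and 0 of 20 called (limma, 3 at an unadjusted p under 0.05), and collagens 0.52 and -0.93 with 0 of 14 (0 unadjusted). Col1a1, the main fibrillar collagen chain, was at 864, 1683 and 1113 FPKM in GC against 357, 493 and 227 FPKM in Control and at 389.6, 69.5 and 562 FPKM in Combination against 519, 326 and 772 FPKM in ICB. GC libraries lay above all Control libraries, whereas Combination and ICB overlapped, and the difference between strata was -2.8 ± 0.95 (interaction, adjusted p = 0.478). Cygb, the oxygen-binding cytoglobin found in stellate cells, was at 35.6, 35.1 and 46.4 FPKM in GC against 6.37, 5.2 and 3.3 FPKM in Control and at 9.61, 7.68 and 13.3 FPKM in Combination against 12.2, 10.1 and 22.4 FPKM in ICB. It was called in the pooled fit (1.16 ± 0.23, adjusted p = 0.0223), a call lost when any 1 of 5 libraries was left out (GC replicate 3 gave the highest adjusted p, 0.0767), although Combination and ICB overlapped and its differences were 2.77 without blockade and -0.46 with it, with an interaction of -3.23 ± 0.46 (adjusted p = 0.0535). Fibroblast list means were 5.95 to 6.99 in GC against 4.60 to 5.82 in Control and 3.41 to 5.48 in Combination against 5.24 to 6.25 in ICB, so the list moves with Cygb and its part was not tested. Over all genes limma called 2 for the interaction (0.0157%), and 1033 had an unadjusted p under 0.05.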

How the data were processed

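RNA sequencing of bulk tumour tissue was measured in 12 libraries of 4 groups. The authors deposited 1 table of FPKM values for 24421 mouse gene symbols. The submitters' processing notes name FastQC, cutadapt, HISAT2, SAMtools and HTSeq and the build mm10, without their roles. The libraries came from a stranded kit, per the labels' protocols, but whether counting used strand is not given in the sources used here, so the reads of genes that overlap or lie antisense cannot be told apart. Whole reads could not be recovered from the FPKM values, so depth is unknown, no count test was used and no counting interval is given.

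Values were analysed as log2(FPKM + 1), with a pseudocount of 1, which understates changes of low genes. The 12765 genes that averaged 1 FPKM or more were fitted in limma 3.58.1 (R 4.3.3) with 4 group means and 8 residual degrees of freedom, an intensity trend and Benjamini-Hochberg adjustment over all of them. The script was tested on simulated data. Differences are log2 values ± SE and replicate values are listed in the order 1, 2 and 3, with replicate numbers from the sample titles. Named genes were, in each direction, up to 10 that were called, separated and at a group mean of at least 5 FPKM, ranked by the smaller of the 2 stratum differences. Up to 10 more were ranked alike among those called with the hepatocyte list mean as covariate, with up to 4 separated members of each list and a fixed set of markers. Genes outside this rule, among them the remaining called members of the interferon list, Perp, Cfb, Cxcl10, Ccl5, Tap2, Irf9, Hspa1b and those of the closing values, were named after their values were seen. For these genes singly, the fits that left out 1 library are not given, so calls near the threshold may be fragile. A few members covered by the rule are not reported here. The members and the 45 lists were chosen with earlier results of these data known. Gene positions are GRCm38 from GENCODE M21, and promoter sequences are from RefSeq (GRCm38.p6). Deviations of same-numbered libraries correlated at -0.24 to 0.42 over all pairs of groups, and above 0.1 in all 3 pairs only between Combination and ICB (0.14 to 0.29), so the main fit has no block, and a block within those libraries was added after seeing the data. Alternatives were 26 settings: other pseudocount, filters, scalings, weights, models, covariates and left-out libraries.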

Additional observations from a re-analysis of the deposited data

Results flagged for a closer look

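In 2 genes the chemotherapy difference with blockade was not the one without it, by the limma test of the difference between strata. Both are liver and gut genes, both were near 0 without blockade, and the part of the hepatocyte and intestinal transcripts of the Combination libraries in them was not tested. Abcg5, a subunit of the sterol export pump of liver and intestine, was at 18.8, 15.98 and 16.6 FPKM in Combination replicates 1, 2 and 3 against 0, 0.0674 and 0.132 FPKM in ICB. Without blockade it was at 0.205, 0.116 and 0.995 FPKM in GC and listed at 0 in all Control libraries. Its differences differed by 3.61 on the log2 scale (limma adjusted p = 0.024).

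Cyp2b10, a drug-metabolising enzyme of liver, was at 26.2, 63.6 and 14.7 FPKM in Combination and listed at 0 in all ICB and Control libraries, with 0, 0.0809 and 0 FPKM in GC. Its differences differed by 4.88 on the log2 scale (limma adjusted p = 0.0278). With 0.1 as the pseudocount neither gene nor any other passed this limma test.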

How the results depend on the processing

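Pooled counts moved with the settings. Counts are higher and lower calls, beside 384 and 45: 131 and 15 at a mean of at least 10 FPKM, 2284 and 2191 with sample weights, 0 and 0 with 3 tissue covariates (337 genes at an unadjusted p under 0.05), 108 and 5 without the muscle-rich pair, and 765 and 116 without the liver-rich Combination libraries. The additive model gave 235 higher. No filter gave 26 lower, TMM scaling 131, quantile scaling 697 and the hepatocyte covariate 7, where 63 of the 429 calls were made again. Leaving out 1 library gave 154 to 1337 higher and 8 to 400 lower. Genes separated in both strata, 560 higher and 294 lower, were 282 and 158 at 10 FPKM, 293 and 995 under quantile scaling and 1386 and 557 without the liver-rich libraries. TMM scaling gave 574 lower and leaving out the muscle-rich pair 506. Leaving out 1 library gave 576 to 949 higher and 296 to 596 lower. A fit with fewer libraries, above all that without the liver-rich ones, meets the no-overlap rule more easily. Its separated counts are therefore not on the same footing as 560 and 294.

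Interaction calls, 2 in limma, were 0 with pseudocount 0.1, at 10 FPKM, with the replicate block and without the muscle-rich pair. They were 7 without filter, 6 under quantile scaling, 9 without trend, 4030 with weights, 380 and 513 with 1 and 3 tissue covariates, 226 without the liver-rich libraries and 0 to 812 when 1 library was left out. The cause of these changes was not tested. The labels do not pair same-numbered libraries. The replicate block gave 331 higher and 38 lower, and the block within the Combination and ICB libraries 665 and 248, with 5 interaction calls.

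The 429 called genes kept their direction in every setting that tested them but the covariate fits (412 and 402). With 3 covariates Apoa1 was at -1.31, Coro6 at 0.10 and Ddb2 at 0.0502. Alb was at -0.42 with the hepatocyte covariate and -0.50 with 3. With 8 residual degrees of freedom and unknown depth, differences of low genes have limited precision.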

Other observations

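Some called genes belong to no group described above and were chosen after their values were seen. Over all genes 3.01% were called higher and 0.353% lower. Ceacam1, an inhibitory adhesion receptor of epithelium and T cells, was at 2.76, 1.51 and 2.65 FPKM in GC replicates 1, 2 and 3 against 0.51, 1.38 and 1.64 FPKM in Control, and at 12.8, 34.5 and 11.6 FPKM in Combination against 2.42, 0.879 and 0.722 FPKM in ICB. It rose by 1.83 ± 0.30 (limma adjusted p = 0.00895) with an overlap in 1 stratum. Gadd45b, a growth arrest gene induced by stress and cytokines, was the 1 call of 16 genes in the YAP list and fell by 1.55 ± 0.36 (adjusted p = 0.0414), also with overlapping libraries. Igfbp4, a binding protein of insulin-like growth factors, rose by 1.03 ± 0.25 (limma adjusted p = 0.0457), the 1 call of 26 genes in the senescence secretory list. That list had 0 members called higher under TMM or quantile scaling, with the replicate block over all libraries, with the hepatocyte covariate or without the muscle-rich pair. Among 15 histone genes Hist1h2bc rose by 0.99 ± 0.22 (limma adjusted p = 0.036). The histone list had 0 called under TMM scaling. With the hepatocyte covariate or without the muscle-rich pair, 0 histone and 0 YAP genes were called.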
